A study of Homo sapiens with 6 samples.

Results

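The p53 pathway target genes described here are 29 genes that encode regulators of p53 or are known as its direct targets. Inhibitors of cyclin-dependent kinases and members of the BCL2 family are not part of the list. The genes were taken by symbol from the 26485 genes of the count files, and all 29 were found. Of these, 28 had enough counts to be tested, among 12937 tested genes in all.

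RNA was taken from AF22, a human line of neural stem cells that was established from induced pluripotent stem cells. In the knockdown group (3 libraries), BMI1 and the read-through transcript COMMD3-BMI1 were the stated targets. The control group (3 libraries) is labelled shControl, a control for short hairpin RNA, with the genotype WT. Nothing in the labels says whether the libraries of a group came from separate cultures, so the p-values reflect only how these 6 libraries vary, and that variation may be technical. Hairpin sequences, vector and time after delivery were not stated in the labels. Every value is from bulk RNA, in which fewer cells of a type and less RNA per cell cannot be told apart.

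p53 is a transcription factor that is kept low by the ubiquitin ligase MDM2 and its relative MDM4, and that accumulates after DNA damage and other stress. It binds response elements made of a pair of adjacent 10-base motifs and raises genes that arrest the cell cycle, repair DNA, change metabolism or promote cell death. MDM2 is itself a target, which closes a negative feedback loop. BMI1, a subunit of Polycomb repressive complex 1, is best known in neural stem cells for repressing the CDKN2A locus, whose ARF product restrains MDM2.

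Response elements lie close to the start of some of these genes, and they are shown here because such an element is the feature that direct targets share. RefSeq promoter windows (GRCh38.p14; 250 bases before to 50 bases after a start) were found for 22 of the 29 genes, in 34 windows. Each window was searched for the p53 response element, scored as a pair of 10-base p53 motifs separated by at most 1 base. The motif reads the same on both strands, so both were covered. An element with at most 2 mismatches over its 20 positions was found for 4 genes, AEN, DDB2, FAS and MDM2, in 5 of the 34 windows, against 1.34% of all 35116 windows. Allowing 3 mismatches gave 9 genes and 12 windows, against 9.75% of all windows. Direct targets are known partly through such elements, so these shares are a description only. The 4 elements with at most 2 mismatches are shown with those of SESN1 and XPC, the genes with 3 mismatches that passed the test below. Capitals mark the motif pair.
DDB2, chr11:47214975-47215003, plus strand, 0 mismatches: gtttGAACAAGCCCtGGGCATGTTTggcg
AEN, chr15:88621301-88621330, plus strand, 2 mismatches: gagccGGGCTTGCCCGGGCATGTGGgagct
FAS, chr10:88991304-88991333, plus strand, 2 mismatches: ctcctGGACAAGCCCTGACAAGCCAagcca
MDM2, chr12:68808918-68808947, plus strand, 2 mismatches: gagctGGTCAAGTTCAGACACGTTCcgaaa
SESN1, chr6:109009013-109009042, minus strand, 3 mismatches: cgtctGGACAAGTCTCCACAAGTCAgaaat
XPC, chr3:14178565-14178594, minus strand, 3 mismatches: aagtgGAATTTGCCCAGACAAGCAAcatgg
The DDB2 element begins at base 6 after the start, and the MDM2 element lies 94 bases before the start of the internal, p53-responsive promoter. These are matches of letters, not measured binding.

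Total counts ran from 4962745 to 9640349 in knockdown libraries and from 5496683 to 6870122 in control libraries. BMI1 was at 39.9, 21.5 and 26.2 CPM (counts scaled to a common library size with TMM factors) in knockdown libraries 1, 2 and 3, against 85.1, 90.0 and 87.4 CPM in control libraries 1, 2 and 3. The labelled target was thus lower in each of the 3 knockdown libraries, with a log2 fold change of -1.64 (SE 0.155, edgeR adjusted p 0.00836) in the paired fit described below and an adjusted p of 0.163 without pairing. COMMD3-BMI1 was listed at 0 counts in every library. Its exons overlap those of BMI1 and COMMD3 on the same strand and the counting method was not stated, so this 0 does not show whether the transcript was present. Knockdown library 2 stood apart, at 40.2 on the principal component that held 49.2% of the variance, with the other 5 libraries between -25.5 and 11.5. Of 11 neural stem cell markers 10 had enough counts to be tested and HES5 was at 0. The summed level of these markers was 3319 to 4316 CPM in knockdown and 3814 to 4004 CPM in control libraries. Most of this sum was VIM and NES, at means of 2133 and 869 CPM in knockdown and 1899 and 1032 CPM in control libraries. NES was at 577 CPM in knockdown library 2, against 1068 CPM in control library 2. PAX6 averaged 11.8 CPM in knockdown and 14.7 CPM in control libraries. Defining markers of other lineages, RBFOX3 (neurons), SOX10 (oligodendrocytes) and NANOG (pluripotent cells), were at 0 in all 6 libraries. The summed level of 6 fibroblast and mesenchymal markers was 1286 to 1927 CPM in knockdown and 1008 to 1284 CPM in control libraries. None of the 6 was at 0, 1 (COL3A1) was higher in the paired fit described below, and their part in the results was not tested.

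The comparison asked whether p53 pathway genes changed when BMI1 was lowered. In a fit that pairs libraries by number, part of the list rose, led by ZMAT3, BTG2 and TP53INP1, 1 gene fell (XPC), and the core feedback gene MDM2 was near its control level. In edgeR's quasi-likelihood test without pairing, 0 of the 28 tested genes passed an adjusted p of 0.05, and neither did any other gene (0% of 12937). At an unadjusted p under 0.05 there were 10 of the 28 genes, against 14.4% of all tested genes. DESeq2 without pairing called 2 of the 28, TNFRSF10B (higher) and XPC (lower). Over all 12937 tested genes it called 126, of which 57 were higher and 69 lower. Limma voom called 0 of the 28 and 0 of all tested genes. Libraries of the same number deviated together in both groups, so a paired fit with the number as a block is given beside the unpaired fit. In that fit 8 of the 28 genes passed (28.6%), where the background was 10.0% of all tested genes. Of these 7 were higher in knockdown (25%, background 4.63%) and 1 was lower (background 5.39%).

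The level in the knockdown libraries lay above that in every control library for 11 of the 28 genes (39.3%), against 9.28% of all tested genes. It lay below every control library for 3 genes (10.7%), against 11.2%. The median log2 fold change of the 28 genes was 0.18 without pairing and 0.17 with it, beside -0.003 and -0.004 over all tested genes. Without pair 2 the paired median of the 28 genes was 0.08. The remaining member, PERP, a cell surface protein of desmosomes that p53 induces in death of other cell types, had 1, 5 and 4 counts in knockdown libraries and 0, 2 and 1 counts in control libraries. It was not tested.

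The size of the change differed between pairs of libraries. Within pairs 1, 2 and 3 (knockdown minus control of the same number), the median log2 difference of the 28 genes was 0.08, 0.34 and 0.11. Over all tested genes it was -0.0004, -0.010 and -0.0004. The difference was above 0 for 21, 24 and 18 of the 28 genes in pairs 1, 2 and 3. These were 75%, 85.7% and 64.3%, against 49.9%, 48.8% and 49.9% of all tested genes. It was above 0 in every pair for 16 genes (57.1%, against 25.6% of all tested genes). The difference was below 0 in every pair for 3 of the 28 genes, and for 3459 of all 12937 tested genes. For 21 of the 28 genes (75%) the difference was largest in pair 2, against 37.3% of all tested genes. Left without pair 2, the paired fit still called these 7 genes higher, and added CCNG1 and PLK3 (9 in all, background 9.33%), with XPC again lower (1 gene, background 8.55%). Fewer libraries were then left to measure the spread, so this is no stronger evidence.

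**Figure D1:**
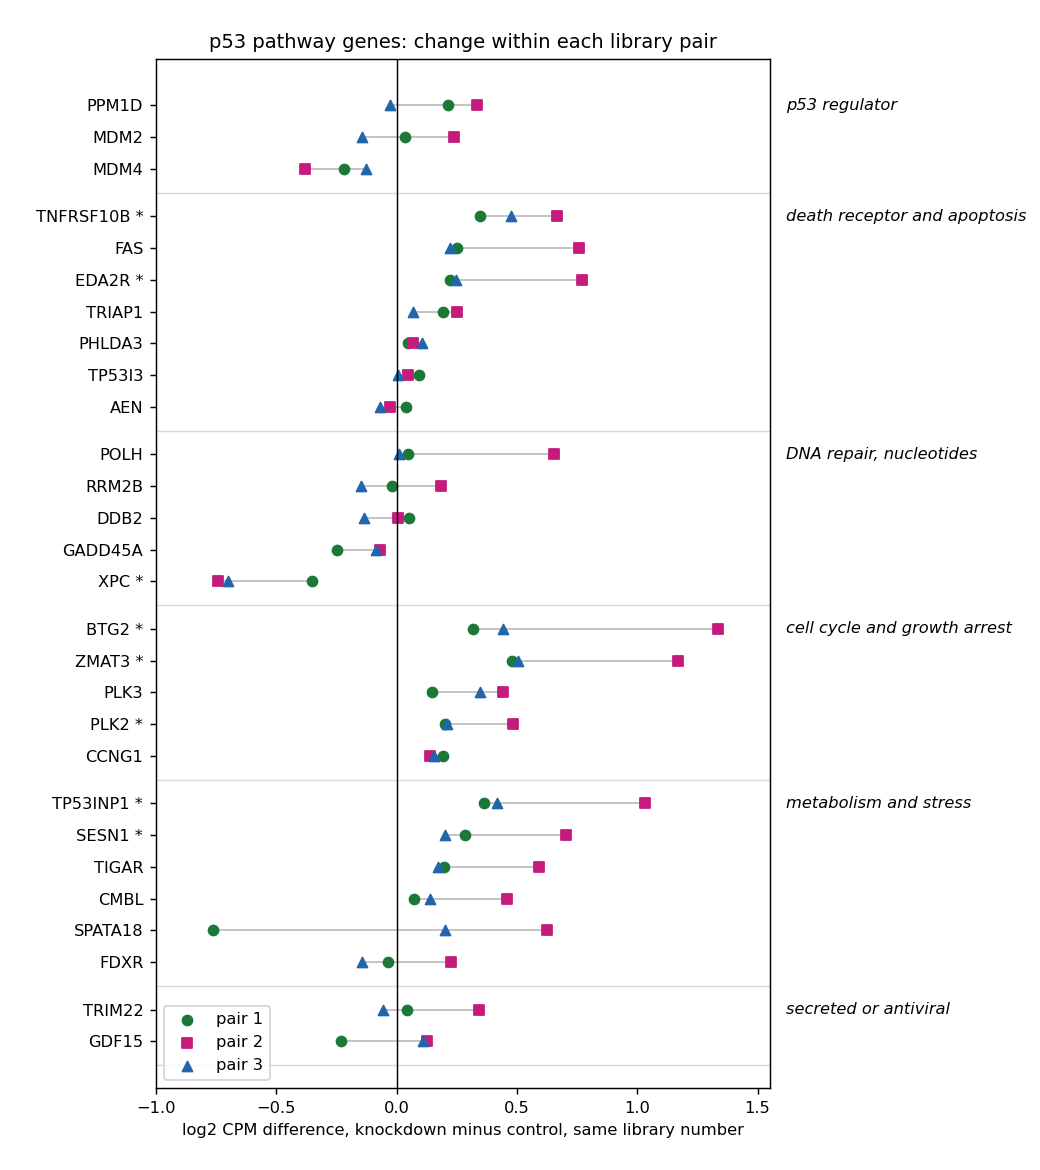
Each row is 1 of the 28 tested genes, grouped by role, and each mark is the log2 CPM difference, knockdown minus control, within library pair 1, 2 or 3. Stars mark the 8 genes past the adjusted p threshold in the paired fit. Pair 2 lies farthest to the right for 21 genes, and only MDM4, GADD45A and XPC lie left of 0 in every pair.

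**Figure D2:**
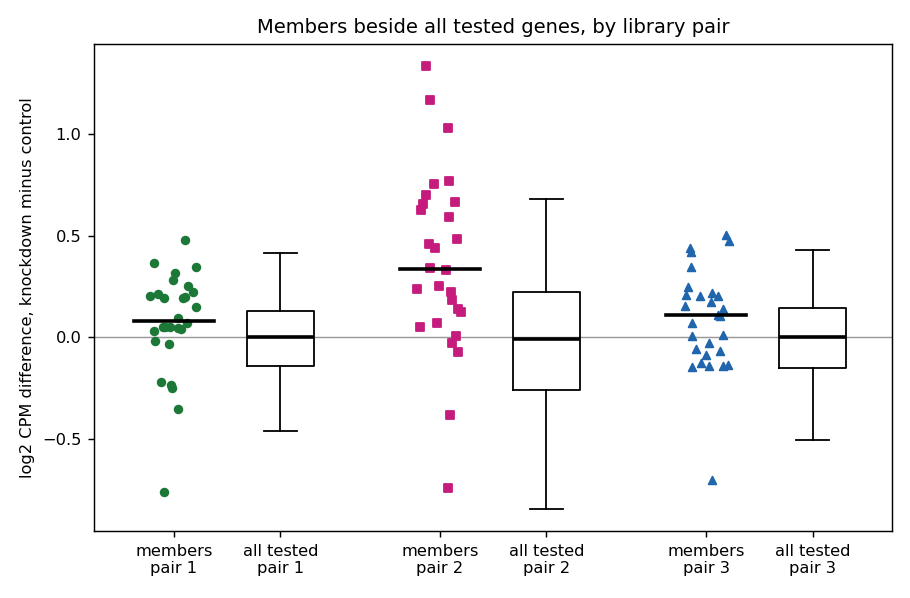
Points are the 28 tested genes and boxes all 12937 tested genes, as log2 CPM differences, knockdown minus control, for each pair of libraries. Thick lines are medians, boxes hold the middle of the distribution between its quartiles, and whiskers reach the percentiles 5 and 95. The median of the 28 genes was 0.08, 0.34 and 0.11 in pairs 1, 2 and 3.

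Genes of proliferating cells were lower in the paired fit, most in pair 2. The summed level of 16 proliferation genes was 3163, 1644 and 2240 CPM in knockdown libraries 1, 2 and 3, and 3644, 3191 and 3140 CPM in control libraries 1, 2 and 3. Of these 16 genes 15 were lower in the paired fit and 0 were higher, while 0 passed without pairing. Their median log2 difference was -0.19, -1.03 and -0.52 in pairs 1, 2 and 3. MKI67, E2F1, MCM2 and PLK1 had the smallest p-values of this list, at paired log2 fold changes of -0.88, -0.80, -0.62 and -0.66. The part of this shift in the changes of the p53 pathway genes was not tested.

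The 3 regulators of p53 among the 28 tested genes, MDM2, MDM4 and PPM1D, did not pass the test. MDM2 (chromosome 12, 68808176 to 68850686, plus strand, GRCh38, GENCODE 29) had 240.1, 301 and 216 CPM in knockdown libraries 1, 2 and 3, against 235, 255 and 238 CPM in control libraries 1, 2 and 3. The groups overlapped, and knockdown library 2 was highest and knockdown library 3 lowest of all 6. With pairing, the log2 fold change of MDM2 was 0.04 (SE 0.0802, edgeR adjusted p 0.755), and without pair 2 it was -0.07. MDM4 (chromosome 1, 204516379 to 204558120, plus strand), which binds and inhibits p53 without being a strong ligase itself, had 48.0, 48.3 and 51.1 CPM in knockdown libraries, against 55.9, 62.9 and 55.8 CPM in control libraries. Every knockdown library lay below every control library. Its paired log2 fold change was -0.24 (SE 0.0845, edgeR adjusted p 0.101). PPM1D, a phosphatase that p53 induces and that shuts down the damage response, averaged 85.6 ± 9.11 CPM in knockdown and 75.6 ± 1.93 CPM in control libraries (SD, n = 3 each). Its paired log2 fold change was 0.17 (edgeR adjusted p 0.221), with pair 3 at -0.03, and without pair 2 it was 0.07.

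Of the 7 tested genes of death receptors and apoptosis, TNFRSF10B and EDA2R rose in the paired fit (28.6%, background 4.63%) and none fell. TNFRSF10B encodes DR5, a receptor for the death ligand TRAIL, and lies on chromosome 8 at 23020133 to 23069179 on the minus strand. It had 576, 736 and 620.4 CPM in knockdown libraries 1, 2 and 3, against 453, 463 and 447 CPM in control libraries 1, 2 and 3. All knockdown libraries were above all control libraries, and the control libraries lay close together. For TNFRSF10B, the log2 fold change in the paired fit was 0.50 (SE 0.076, edgeR adjusted p 0.0222, higher in 3 of 3 pairs), a 1.41-fold rise, against an adjusted p of 0.258 without pairing. Without pair 2 it was 0.41. Exons of RHOBTB2 overlap it on the opposite strand, and RHOBTB2 was at 44.4 ± 3.59 CPM in knockdown and 40.7 ± 2.30 CPM in control libraries (SD, n = 3 each).

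EDA2R, the receptor of an ectodysplasin isoform and a relative of the death receptors (chromosome X, 66595637 to 66639298, minus strand), had 91.8, 155 and 107 CPM in knockdown libraries, against 78.6, 91.0 and 90.0 CPM in control libraries. The groups did not overlap, but knockdown library 1 exceeded the highest control library by less than 1 CPM. The paired log2 fold change was 0.42 (SE 0.108, edgeR adjusted p 0.0436), and without pair 2 it was 0.24 (adjusted p 0.00548). With scaling by total count only, the paired adjusted p of EDA2R was 0.0524, and in paired DESeq2 it was 0.0573.

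FAS, the receptor of the death ligand FASLG, had 33.1, 62.8 and 41.1 CPM in knockdown libraries, against 27.7, 37.1 and 35.2 CPM in control libraries. It was higher in each pair, but knockdown library 1 lay below control libraries 2 and 3. The paired log2 fold change was 0.43 (SE 0.12, edgeR adjusted p 0.0556), and without pair 2 it was 0.23 (adjusted p 0.110). Exons of ACTA2 overlap FAS on the opposite strand, and ACTA2 had a paired log2 fold change of 0.07. The other tested members of this role did not pass. TRIAP1, an inhibitor of apoptosis induced by p53, averaged 71.0 ± 4.39 CPM in knockdown and 62.9 ± 0.267 CPM in control libraries (SD, n = 3 each; paired edgeR adjusted p 0.177), and its groups did not overlap. PHLDA3, which blocks AKT at the membrane, averaged 104 ± 17.7 and TP53I3, a quinone oxidoreductase, 86.9 ± 9.30 CPM in knockdown libraries (SD, n = 3 each). In control libraries PHLDA3 averaged 98.2 ± 16.1 and TP53I3 84.1 ± 10.8 CPM (SD, n = 3 each). AEN, an apoptosis-enhancing nuclease, averaged 167 ± 8.90 CPM in knockdown and 169.7 ± 10.4 CPM in control libraries (SD, n = 3 each). The paired log2 fold changes of PHLDA3, TP53I3 and AEN were 0.08, 0.05 and -0.02.

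Among the 5 genes of DNA repair and nucleotide supply, XPC fell in the paired fit (20%, background 5.39%) and none rose. XPC encodes the damage sensor of global genome nucleotide excision repair and lies on chromosome 3 at 14145147 to 14178783 on the minus strand. It had 87.7, 72.8 and 70.4 CPM in knockdown libraries 1, 2 and 3, against 112, 122 and 115 CPM in control libraries 1, 2 and 3. Every knockdown library was below every control library, and libraries 2 and 3 were lower than library 1. In the paired fit, XPC had a log2 fold change of -0.61 (SE 0.0871, edgeR adjusted p 0.0211, lower in 3 of 3 pairs), a fitted ratio of 0.656 to control. In place of 0.0211, the adjusted p without pairing was 0.258, and without pair 2 the log2 fold change was -0.56. LSM3 shares exon sequence with XPC on the opposite strand. It had 48.0 ± 5.68 CPM in knockdown and 54.4 ± 0.801 CPM in control libraries (SD, n = 3 each), without overlap, at a paired log2 fold change of -0.18 (edgeR adjusted p 0.223).

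DDB2, which recognises ultraviolet damage together with DDB1 and hands it to XPC, did not pass. It had 41.4, 32.2 and 50.4 CPM in knockdown libraries 1, 2 and 3, against 39.9, 32.0 and 55.4 CPM in control libraries 1, 2 and 3. Its levels followed the library number in both groups, with library 3 highest and library 2 lowest. The range over control libraries was 0.79 on the log2 scale, and the paired log2 fold change was -0.04 (SE 0.0871, edgeR adjusted p 0.819). DDB2 is the gene whose printed element matched without a mismatch. POLH, the translesion polymerase that bypasses ultraviolet damage, had 77.5, 118 and 76.4 CPM in knockdown libraries, against 74.7 to 75.7 CPM in control libraries. The groups did not overlap, but knockdown libraries 1 and 3 exceeded the controls by little, and without pair 2 its paired log2 fold change was 0.03, in place of 0.25 (SE 0.122, edgeR adjusted p 0.216). GTPBP2, whose exons overlap POLH on the opposite strand, was at 63.8 ± 7.24 CPM in knockdown and 63.1 ± 3.21 CPM in control libraries (SD, n = 3 each). GADD45A, a stress sensor of growth arrest and repair, averaged 50.9 ± 4.54 CPM in knockdown and 55.8 ± 1.44 CPM in control libraries (SD, n = 3 each), without overlap. RRM2B, the ribonucleotide reductase subunit induced by p53, averaged 136 ± 15.7 CPM in knockdown and 135 ± 5.58 CPM in control libraries (SD, n = 3 each). The paired log2 fold changes of GADD45A and RRM2B were -0.13 and 0.007.

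Of the 5 genes of cell cycle and growth arrest, ZMAT3, BTG2 and PLK2 rose in the paired fit (60%, background 4.63%). All 5 were higher in each pair, against 25.6% of all tested genes. This depends on how genes were assigned to roles. GADD45A, also tied to growth arrest but placed with the repair genes, was lower in each pair (-0.25, -0.07 and -0.09 on the log2 scale). ZMAT3, an RNA-binding zinc finger protein that acts on splicing and transcript stability downstream of p53 (chromosome 3, 179017223 to 179072279, minus strand), had 209.7, 402 and 196 CPM in knockdown libraries, against 150.5, 178 and 138 CPM in control libraries. The groups did not overlap, and knockdown library 2 lay far above the other knockdown libraries. With pairing, the log2 fold change of ZMAT3 was 0.73 (SE 0.126, edgeR adjusted p 0.0244), against an adjusted p of 0.267 without pairing. Left without pair 2, it was 0.49.

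BTG2, an antiproliferative protein that recruits the CCR4-NOT deadenylase (chromosome 1, 203305491 to 203309602, plus strand), had 59.8, 132 and 79.1 CPM in knockdown libraries, against 48.0, 52.2 and 58.1 CPM in control libraries. Knockdown library 1 exceeded control library 3 by a small margin, and knockdown library 2 was the highest of all 6. For BTG2, the log2 fold change in the paired fit was 0.73 (SE 0.171, edgeR adjusted p 0.037), and without pair 2 it was 0.39. In paired DESeq2 its adjusted p was 0.220. PLK2, a polo-like kinase induced by stress and by neuronal activity (chromosome 5, 58453982 to 58460260, minus strand), had 163, 202 and 172 CPM in knockdown libraries, against 141, 144 and 149 CPM in control libraries. No knockdown library fell within the control range. In the paired fit, PLK2 had a log2 fold change of 0.30 (SE 0.0757, edgeR adjusted p 0.0429), close to the threshold, and without pair 2 it was 0.20. The adjusted p of PLK2 was 0.0586 without pair 1, 0.0859 without pair 3, 0.0529 with total count scaling and 0.121 in DESeq2.

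PLK3, a related stress kinase, had 28.3, 50.3 and 43.2 CPM in knockdown libraries, against 25.5, 36.9 and 33.9 CPM in control libraries. It was higher in each pair, but the groups overlapped, with library 1 low in both. With pairing, the log2 fold change of PLK3 was 0.33 (SE 0.095, edgeR adjusted p 0.0583), and it passed without pair 2 (0.28, adjusted p 0.0463). CCNG1, a cyclin that binds the phosphatase PP2A and acts on MDM2, had 535, 481 and 513 CPM in knockdown libraries, against 468, 437 and 461 CPM in control libraries. All knockdown libraries lay above all control libraries. Its pair differences were 0.19, 0.14 and 0.16 on the log2 scale, a range of 0.06, the narrowest of the 28 genes. For CCNG1, the log2 fold change in the paired fit was 0.16 (SE 0.0612, edgeR adjusted p 0.122), and without pair 2 it was 0.17 (adjusted p 0.0017).

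**Figure D3:**
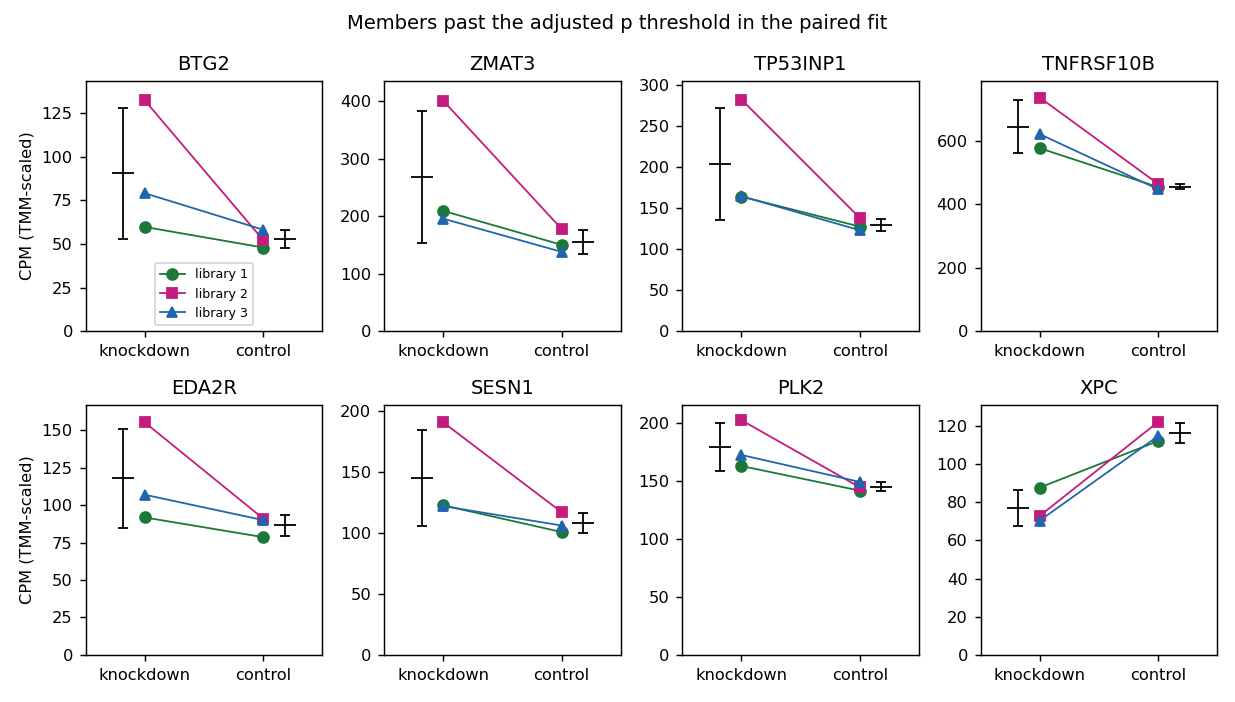
Levels in TMM-scaled CPM of the 8 genes past the threshold in the paired fit, with knockdown libraries at left and control libraries at right of each panel. Lines join libraries of the same number, and black bars give the mean and SD (n = 3 each). BTG2, ZMAT3, TP53INP1, TNFRSF10B, EDA2R, SESN1 and PLK2 were higher in each pair, with library 2 steepest, and XPC was lower in each.

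In the role of metabolism, mitochondria and antioxidant defence, TP53INP1 and SESN1 rose in the paired fit (33.3%, background 4.63%) and none of the 6 genes fell. TP53INP1, a stress protein that promotes autophagy and phosphorylation of p53 (chromosome 8, 94925972 to 94949411, minus strand), had 164, 282 and 165 CPM in knockdown libraries, against 128, 138 and 123 CPM in control libraries. The groups did not overlap. Knockdown libraries 1 and 3 were almost alike, and library 2 was far higher. In the paired fit, TP53INP1 had a log2 fold change of 0.61 (SE 0.12, edgeR adjusted p 0.0266), a 1.53-fold rise, and without pair 2 it was 0.39. The adjusted p without pairing was 0.263.

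SESN1, a sestrin that lowers mTORC1 activity and takes part in the defence against oxidants (chromosome 6, 108986437 to 109094819, minus strand), had 123, 191 and 122 CPM in knockdown libraries, against 101, 117 and 106 CPM in control libraries. The groups did not overlap, and library 2 was highest within each group. With pairing, the log2 fold change of SESN1 was 0.40 (SE 0.0982, edgeR adjusted p 0.0399), and without pair 2 it was 0.23 (adjusted p 0.00271). In paired DESeq2 its adjusted p was 0.051. TIGAR, a phosphatase that lowers glycolytic flux, had 88.5, 124 and 95.4 CPM in knockdown libraries, against 77.2, 81.9 and 84.7 CPM in control libraries. Its groups did not overlap, and its paired log2 fold change was 0.33 (SE 0.0925, edgeR adjusted p 0.0576). Without pair 2 the value of TIGAR was 0.18.

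The other 3 genes of this role did not pass. CMBL, a carboxymethylenebutenolidase homolog, averaged 48.2 ± 9.67 CPM in knockdown and 40.8 ± 2.73 CPM in control libraries (SD, n = 3 each; paired edgeR adjusted p 0.160). FDXR, the mitochondrial reductase of the ferredoxin chain, averaged 67.9 ± 14.5 CPM in knockdown and 66.4 ± 6.34 CPM in control libraries (SD, n = 3 each). SPATA18, which takes part in mitochondrial quality control, was the lowest of the 28 tested genes in counts, with 23, 130 and 59 counts in knockdown and 45, 73 and 37 counts in control libraries. Its log2 differences were -0.76, 0.63 and 0.20 in pairs 1, 2 and 3, and its SE in the paired fit was 0.247.

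Both genes of the secreted or antiviral role overlapped between groups. GDF15, a secreted stress cytokine of the TGF-beta family that is also induced by the integrated stress response, had 69.7, 105 and 112 CPM in knockdown libraries, against 82.0, 96.1 and 104 CPM in control libraries. Library 1 was lowest and library 3 highest in both groups, and the paired log2 fold change was 0.01 (SE 0.0842, edgeR adjusted p 0.928). TRIM22, an antiviral ubiquitin ligase induced by interferon as well as by p53, averaged 59.7 ± 13.4 CPM in knockdown and 54.9 ± 9.77 CPM in control libraries (SD, n = 3 each; paired edgeR adjusted p 0.473).

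**Figure D4:**
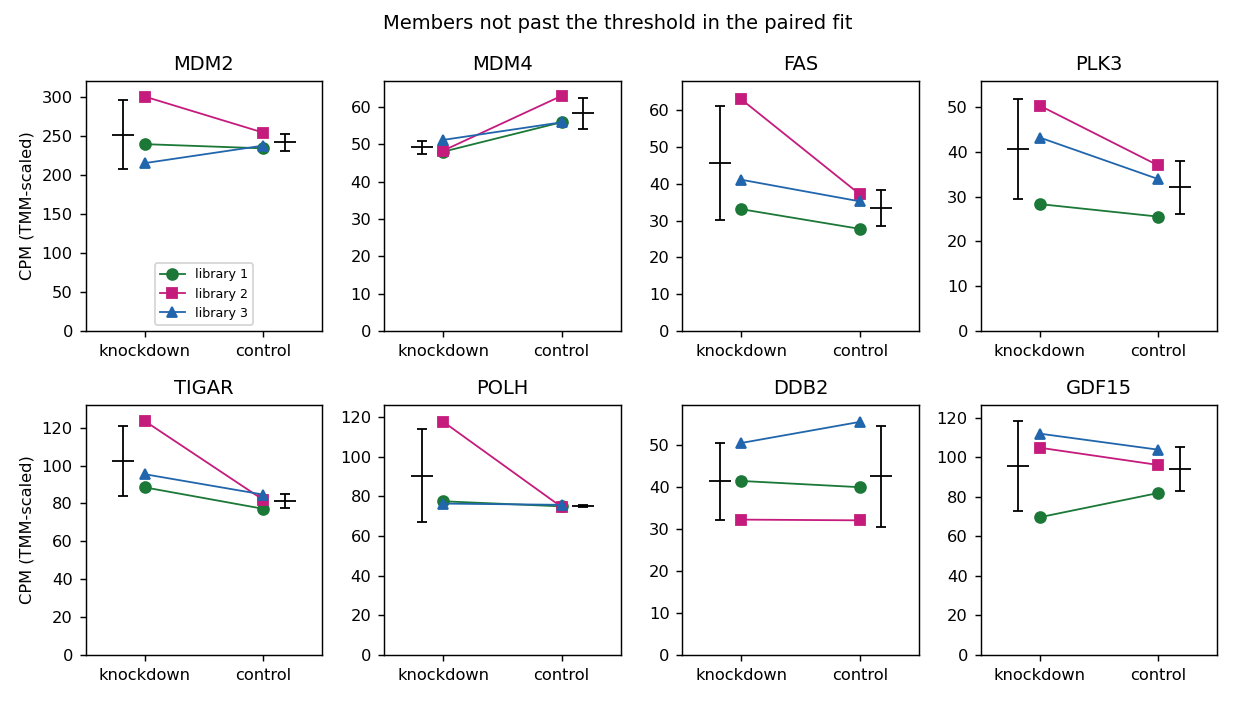
Levels in TMM-scaled CPM of 8 genes that did not pass the threshold in the paired fit, with knockdown libraries at left and control libraries at right, lines joining libraries of the same number and black bars for mean and SD (n = 3 each). For DDB2 and GDF15 the order of the libraries is set by their number in both groups, and for POLH knockdown library 2 lies far above the rest.

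Paired log2 fold changes are given for all 9 genes with an element in the window. Of the 4 genes with at most 2 mismatches, the value was -0.04 for DDB2, -0.02 for AEN, 0.43 for FAS and 0.04 for MDM2, and none passed. Of the 5 with 3 mismatches, SESN1 (0.40) and XPC (-0.61) passed and their elements were printed for that reason, while FDXR (0.02), GDF15 (0.01) and SPATA18 (0.18) did not pass. No window was used for TNFRSF10B or TP53INP1. The other genes that passed, ZMAT3, BTG2, EDA2R and PLK2, had windows without an element of at most 3 mismatches.

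The spread within groups also differed among the genes. The median range over the 28 genes was 0.50 on the log2 scale among knockdown libraries and 0.18 among control libraries. Over all tested genes these medians were 0.35 and 0.23. For 12 of the 28 genes the range among control libraries exceeded the mean pair difference in size. The control range was widest for SPATA18, at 1.04, followed by 0.79 for DDB2, 0.53 for PLK3, 0.52 for TRIM22 and 0.48 for PHLDA3. PHLDA3 had 84.8, 120 and 106 CPM in knockdown libraries 1, 2 and 3, against 82.0, 114 and 98.5 CPM in control libraries 1, 2 and 3. By count, the 29 genes made up 0.337%, 0.455% and 0.354% of the counts of knockdown libraries 1, 2 and 3, and 0.307%, 0.336% and 0.326% of those of control libraries 1, 2 and 3.

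The lists of other genes tied to p53 were described in the same way. Of 51 further direct targets 45 were tested, with 5 higher (11.1%, background 4.63%) and 1 lower (background 5.39%) in the paired fit. Calls in either direction made up 13.3% of these genes, against 10.0% of all tested genes. Without pairing, 13.3% had an unadjusted edgeR p under 0.05, against 14.4% of all tested genes. Their median log2 fold change was 0.14 without pairing. The pair medians of these 45 genes were 0.05, 0.21 and -0.001. ABHD4, a lipase of N-acyl phospholipids, rose by 0.34, the ephrin receptor gene EPHA2 by 0.26 and FBXW7, a substrate receptor of an SCF ubiquitin ligase, by 0.42 on the log2 scale in the paired fit. CD82 (0.35) was also higher and SAC3D1 (-0.32) was the lower one, both named after their values were seen.

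Of 25 upstream regulators of p53 activity and stability, all tested, 3 were lower (background 5.39%) and 1 was higher (4%, background 4.63%) in the paired fit. Calls in either direction made up 16% of this list, against 10.0% of all tested genes. TRIM24, a ubiquitin ligase for p53, had 190.0, 116 and 151 CPM in knockdown libraries, against 269.6, 259 and 246 CPM in control libraries. Every knockdown library was below every control library, at a paired log2 fold change of -0.78 (SE 0.11, edgeR adjusted p 0.0211). DAXX, a histone chaperone that binds MDM2, fell by 0.39 and the checkpoint kinase gene CHEK1, which is also expressed with the cell cycle, fell by 0.38 on the log2 scale in the paired fit. RPL11, a ribosomal protein that can bind and block MDM2, rose by 0.25; ribosomal protein genes have near-identical pseudogenes, so this value is uncertain.

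The p53 targets among the inhibitors of cyclin-dependent kinases and the BCL2 family were mixed. CDKN1A (p21) had 417, 596 and 478 CPM in knockdown libraries, against 327, 378 and 355 CPM in control libraries, with a paired log2 fold change of 0.48 (SE 0.0748, edgeR adjusted p 0.0222). BAX (0.06), BBC3 (0.25) and PMAIP1 (-0.57) did not pass, and PMAIP1, at 4.66 ± 0.762 CPM in knockdown and 6.96 ± 0.698 CPM in control libraries (SD, n = 3 each), was lower in all 3 pairs.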

How the data were processed

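Total RNA of 6 AF22 libraries was made into directional libraries, per the labels' protocols. The authors deposited 1 table per library of raw read counts for 26485 gene symbols. Per the submitters' processing notes, Trim Galore 0.6.6, STAR 2.7.10a, bedtools and hg38 were used. How reads were counted, on which annotation and with which strand option, was not stated there, so reads of overlapping genes could have been split or dropped.

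Groups came from the sample titles. Counts were tested with edgeR 4.0.16 (R 4.3.3; filterByExpr, TMM, quasi-likelihood test, Benjamini-Hochberg over 12937 genes, threshold 0.05). The SE is the log2 fold change divided by the square root of F. Pair differences use log2 CPM with a prior count of 2. Within knockdown and within control, no 2 libraries agreed within sampling noise (chi-square per gene at least 3.19). Same-numbered libraries deviated together (correlations 0.563, 0.467 and 0.535 across genes; all above 0.1), so the numbers were taken to pair them; this comes from the data, not the labels. Alternatives were other scalings and filters, DESeq2 1.42.0, limma 3.58.1 voom, a GC content and transcript length correction (GENCODE 29, found for 94.9% of tested genes), a threshold of 0.01 and leaving out libraries or pairs. The scripts were tested on simulated data first, with an effect of the library number built in. There the paired fit made 198 calls, of which 20 were false, more than the threshold of 0.05 allows. It recovered 81 of 100 changes of 0.6 on the log2 scale. The unpaired fit made 99 calls, 0 of them false, and recovered 18 of these 100 changes.

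The members and lists were chosen with earlier results of these data known. All members are named; levels per library are given for those past the threshold in either fit, MDM2, MDM4 and the 4 others of largest change, and up to 4 genes of smallest paired p are named from each other gene list, except marker lists. Levels of other members were added after seeing the data. A result that this rule names is not reported here.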

Additional observations from a re-analysis of the deposited data

How the results depend on the processing

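Without pairing, the count of members past the threshold was 0 under the other scalings and filters and in limma voom; DESeq2 called 1 higher and 1 lower, and the replicate block 7 higher and 1 lower. Leaving out 1 library gave 0 to 2 higher and 0 to 1 lower, the calls coming without knockdown library 1 (BTG2, TNFRSF10B and XPC). The unpaired median log2 fold change ran from 0.08 (without knockdown library 2) to 0.24 and stayed above 0. With the replicate block, DESeq2 called 3 higher and an adjusted p of 0.01 called 0 higher and 0 lower. The other scalings and filters and the GC content and length correction gave 5 to 10 higher and 1 lower. Without replicate 1, 2 or 3 the block called 6 to 9 higher and 1 lower. Over all genes, the paired count was 1296, against 590 in DESeq2, 12 at an adjusted p of 0.01, 2171 with no filter and 2296 without pair 2; the unpaired count was 0, against 126 in DESeq2 and 665 without knockdown library 1. The cause was not tested, except that a stricter threshold must lower a count.

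No member past the threshold in the paired fit changed sign. Members near 0 did. With total count scaling RRM2B was at -0.0038 unpaired and -0.00996 with the block, and GDF15 at -0.00161 with the block; with the GC correction MDM2 was at -0.00745 with the block. Leaving out libraries from the unpaired fit gave ranges of -0.0641 to 0.0271 for AEN, -0.218 to 0.207 for DDB2, -0.156 to 0.129 for FDXR, -0.101 to 0.209 for GDF15, -0.092 to 0.159 for MDM2, -0.0341 to 0.203 for PHLDA3, -0.0667 to 0.101 for RRM2B, -0.567 to 0.51 for SPATA18, -0.0477 to 0.132 for TP53I3 and -0.0307 to 0.277 for TRIM22. Leaving out pairs from the block gave -0.0441 to 0.0044 for AEN, -0.0693 to 0.0299 for DDB2, -0.101 to 0.104 for FDXR, -0.0443 to 0.121 for GDF15 (-0.0163 without pair 2), -0.0657 to 0.138 for MDM2, -0.0921 to 0.0851 for RRM2B, -0.206 to 0.478 for SPATA18 and -0.0225 to 0.207 for TRIM22. At these totals PERP, with 13 counts in all, could not be measured, and SPATA18 carried the largest error.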
